A study of Glycine max with 4 samples.

Results

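The 5 soybean genes described here encode the enzymes that load malonyl units onto acyl carrier protein (MCMT, Glyma.11G164500), reduce the ketoacyl chain (KAR, Glyma.11G248000 and Glyma.18G009200) and remove water from it (HAD, Glyma.08G179900 and Glyma.08G073900). They were chosen as genes of the acyl chain cycle that had a GmWRI1 site in early maturation embryos, out of 110 fatty acid and triacylglycerol (FAT) genes for which the study located 119 sites. The choice rested on GmWRI1 occupancy in these same samples, so their occupancy is given as a description and no test was run on it. The study analysed sites of FAT genes that it called direct targets. It defined these as bound by GmWRI1 and higher in mRNA in embryo cotyledon parenchyma than in seed coat. A bound gene without that expression pattern may therefore lack a listed site. The members were compared with the further copies of the same enzymes (HAD, Glyma.15G052500, and MCMT, Glyma.18G057700) and with 11 genes of the ketoacyl-ACP synthases (KASI, KASII and KASIII) and enoyl-ACP reductase (ENR). Together these are 18 genes of 7 enzymes.

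Plant fatty acids are built in the plastid by a dissociated synthase, in which each reaction has its own soluble enzyme and the growing chain stays attached to acyl carrier protein (ACP). Malonyl-CoA:ACP malonyltransferase (MCMT) supplies the extender unit. A ketoacyl-ACP synthase condenses it with the chain, ketoacyl-ACP reductase (KAR) reduces the keto group with NADPH, hydroxyacyl-ACP dehydratase (HAD) removes water, and ENR saturates the resulting double bond before the next round. WRINKLED1 (WRI1) is an AP2-type transcription factor known from Arabidopsis for promoting the conversion of sugars into fatty acids in seeds, and genes of glycolysis and of this cycle are among its known targets there.

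Occupancy was measured by chromatin immunoprecipitation and sequencing (ChIP-Seq) in embryos of soybean (Glycine max cv Williams 82) at the early maturation (em) stage, from seeds of 6 to 7 mm. The 2 ChIP samples were precipitated with an antibody that, per the study's methods, recognises both GmWRI1-A and GmWRI1-B, and the 2 input samples are chromatin of the same stage and cultivar without immunoprecipitation. No genotype or treatment separated the samples, and the labels call the replicates biological. The ChIP labels name only the GmWRI1-A gene. An occupancy value here may therefore combine both proteins, in shares that were not measured, and it covers all cells of the embryo. More occupied cells and stronger occupancy per cell cannot be told apart in it.

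The list of replicate 1 held 22982 peaks, and that of replicate 2 held 20027 peaks, each called against input. For each peak, the deposited fold enrichment is the ratio of ChIP reads at the summit, the highest point of the peak, to the local background, each raised by a pseudocount of 1. Both terms were solved from the deposited values. Summits had a median of 37 reads in replicate 1 and 26 reads in replicate 2, and the background had medians of 8.19 (replicate 1) and 4.38 reads (replicate 2). Replicate 2 thus had fewer reads at its summits and a lower background there. Its fold enrichment exceeded that of replicate 1 by a median factor of 1.13 over the 15181 regions in which peaks of both replicates met (shared regions). The 2 input samples entered only through the background. No expression was measured in these samples, and the stage was not checked against marker genes here.

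All 5 members had a peak over their site in both replicates. Over the genome, 15181 of 26116 regions of either list were shared (58.1%). By strength, 3 members were strong and 2 were weak, with none between. Both KAR genes and the HAD gene Glyma.08G179900 averaged 40.7 to 47.3, whereas the HAD gene Glyma.08G073900 and the MCMT gene Glyma.11G164500 averaged 7.18 and 7.36. The median of all shared regions was 5.03.

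**Figure D1:**
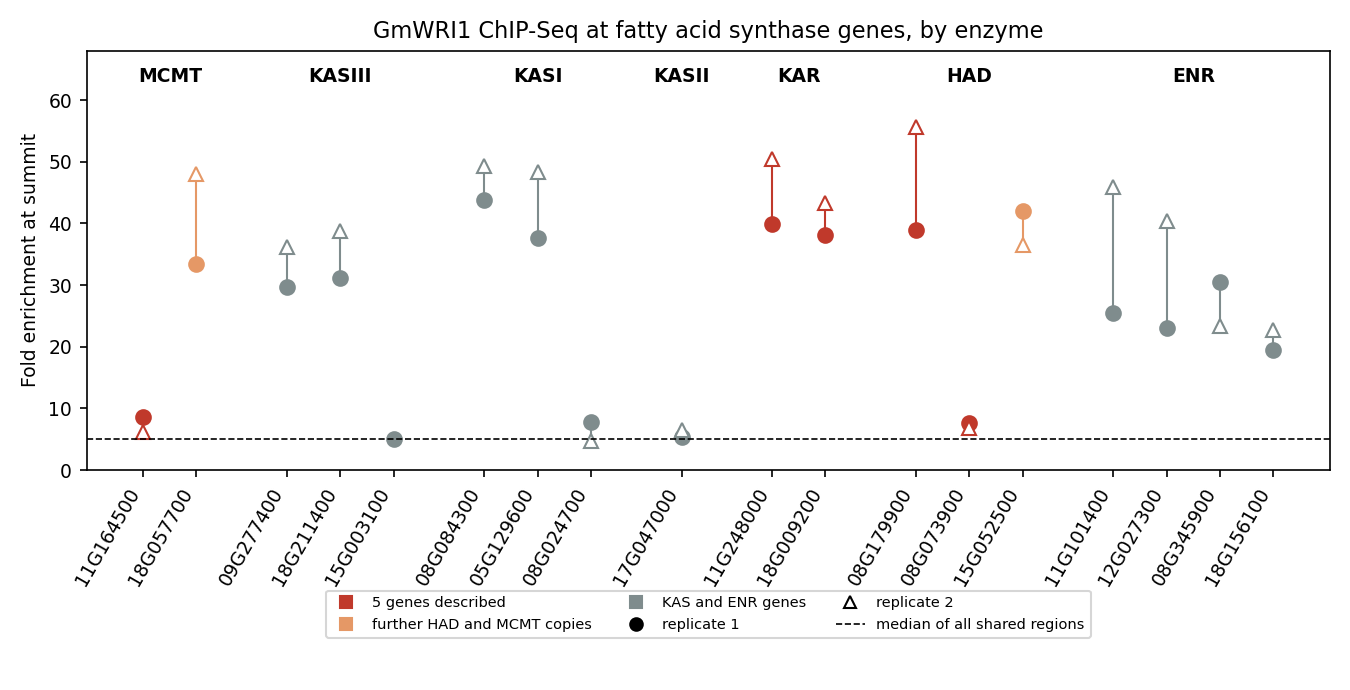
Fold enrichment at the summit (y axis) of 18 fatty acid synthase genes (x axis, without the prefix Glyma.), grouped by enzyme in the order of the pathway. Filled circles are replicate 1, open triangles replicate 2, and the dashed line is the median of all shared regions (5.03). Both KAR genes lie above 38 in both replicates, whereas HAD and MCMT each have 1 gene under 9.

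Both genes with a located site for KAR, the reductase that uses NADPH on the ketoacyl chain, were strongly occupied. Glyma.11G248000 had a fold enrichment of 39.9 in replicate 1 and 50.4 in replicate 2 (mean 45.1 ± 7.44, SD, n = 2). Glyma.18G009200 had 38.1 in replicate 1 and 43.3 in replicate 2 (40.7 ± 3.72, SD, n = 2). Replicate 2 was the higher sample for both genes.

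The peak of Glyma.11G248000 spanned chr11:34060675-34061373 in replicate 1 and chr11:34060674-34061394 in replicate 2 (build Wm82.a2.v1). That of Glyma.18G009200 spanned chr18:667012-667854 in replicate 1 and chr18:667026-667773 in replicate 2. Which part of each gene these intervals cover, and the sequence under the summits, were not analysed here.

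The reads at these summits were 362 for Glyma.11G248000 and 369 for Glyma.18G009200 in replicate 1, and 289 and 300 in replicate 2. The background was 8.11 and 8.72 reads in replicate 1, and 4.76 and 5.95 reads in replicate 2. By fold enrichment Glyma.11G248000 was above Glyma.18G009200 by a log2 ratio of 0.07 in replicate 1 and 0.22 in replicate 2 (0.14 ± 0.11, SD, n = 2). By reads alone the order was turned round, with log2 ratios of −0.028 in replicate 1 and −0.054 in replicate 2. The exact Poisson 95% intervals of counting error for fold enrichment overlapped, at 35.9 to 44.2 for Glyma.11G248000 and 34.3 to 42.2 for Glyma.18G009200 in replicate 1. In replicate 2 they were 44.8 to 56.5 and 38.6 to 48.5. Counting intervals cover no other error, and reads from amplified libraries are not all separate molecules. The mean difference by fold enrichment thus exceeded its SD but lay within counting error, and it depended on dividing by the background.

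The HAD genes differed widely. Among the 3 with a site, Glyma.08G179900 had a fold enrichment of 38.9 in replicate 1 and 55.6 in replicate 2 (47.3 ± 11.8, SD, n = 2). This was the highest mean of the synthase genes, by less than its SD. Glyma.15G052500 had 42.1 in replicate 1 and 36.5 in replicate 2 (39.3 ± 3.94, SD, n = 2). Glyma.08G073900 had only 7.60 in replicate 1 and 6.76 in replicate 2 (7.18 ± 0.596, SD, n = 2). The strong pair and the weak gene did not overlap in any replicate.

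The homologs given for these genes do not separate strong from weak. Glyma.08G073900 (weak) and Glyma.15G052500 (strong) are both matched by the study to Arabidopsis AT5G10160, and Glyma.08G179900 (strong) to AT2G22230. The 2 HAD members lie on the same chromosome, with summits 8.77 Mb apart. The peak of Glyma.08G179900 spanned chr8:14414958-14415775 in replicate 1 and chr8:14414967-14415757 in replicate 2. That of Glyma.08G073900 spanned chr8:5649356-5649849 in replicate 1 and chr8:5649337-5649845 in replicate 2.

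The log2 ratio of Glyma.08G179900 over Glyma.08G073900 was 2.36 in replicate 1 and 3.04 in replicate 2 (2.70 ± 0.48, SD, n = 2), which is 5.12-fold and 8.22-fold. Glyma.15G052500 exceeded Glyma.08G073900 by 2.47 in replicate 1 and 2.43 in replicate 2 (2.45 ± 0.03, SD, n = 2). Most of both differences lay in the reads. Glyma.08G179900 had 376 and 319 reads at its summit and Glyma.15G052500 had 349 and 296 reads, against 80 and 54 reads for Glyma.08G073900. The background was 8.69 and 4.76 reads for Glyma.08G179900, 7.32 and 7.13 reads for Glyma.15G052500, and 9.65 and 7.13 reads for Glyma.08G073900, and so was not lower in either replicate at the weak gene. No test was run, since the genes were chosen with these values known and there were only 2 replicates.

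Between the strong HAD copies the order depended on the background. Glyma.08G179900 over Glyma.15G052500 gave a log2 ratio of −0.11 in replicate 1 and 0.61 in replicate 2 (0.25 ± 0.51, SD, n = 2), so the spread exceeded the difference. The reads alone gave 0.11 in both replicates, or 1.08-fold. The background of Glyma.15G052500 in replicate 2 was 0.975 times that in replicate 1, whereas the ratio was 0.548 for Glyma.08G179900 and a median of 0.533 over all shared regions. The source of that background was not tested.

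**Figure D2:**
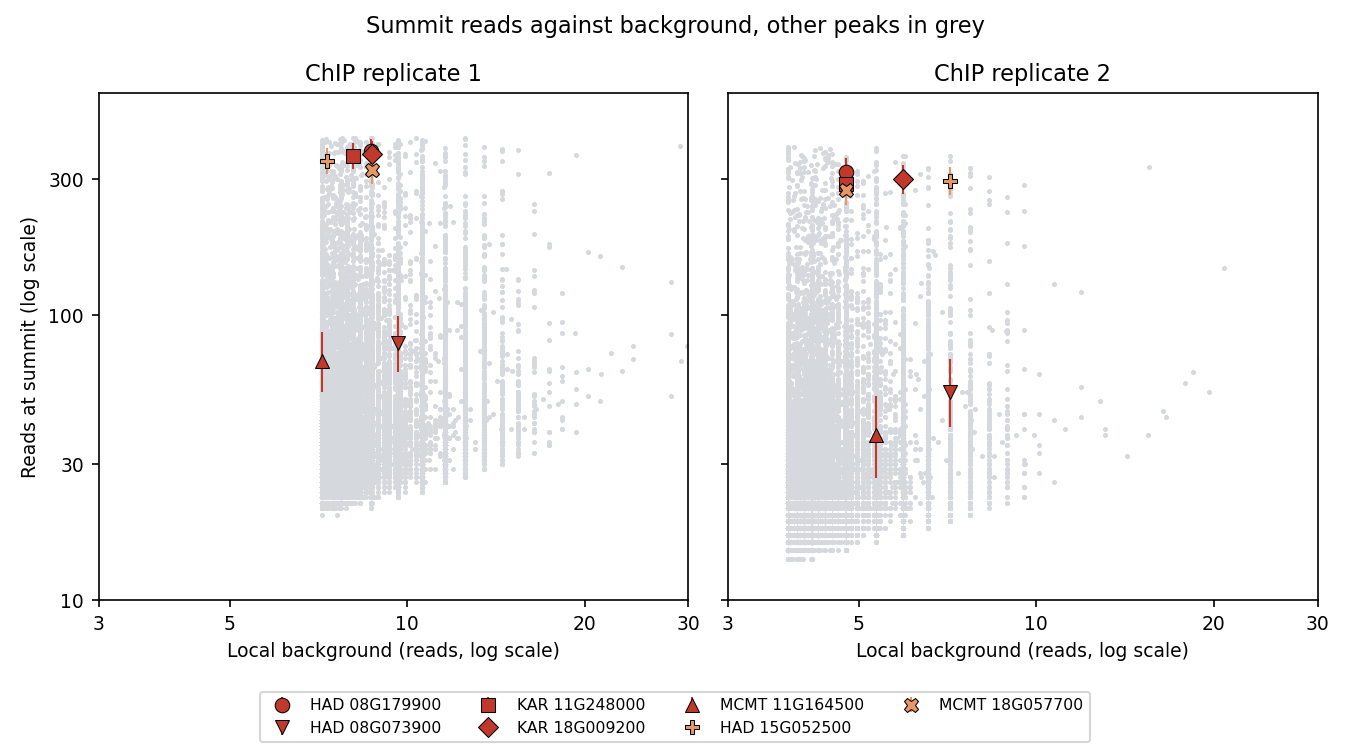
Reads at the summit (y axis, log scale) against local background in reads (x axis, log scale) for the 7 KAR, HAD and MCMT genes in each ChIP replicate, with exact Poisson 95% intervals of the reads and other peaks in grey. The axis was limited to backgrounds of 3 to 30 reads, which leaves 5 peaks of replicate 1 and 134 of replicate 2 outside. The 5 strong genes have 275 to 376 reads, whereas Glyma.08G073900 and Glyma.11G164500 have 38 to 80.

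MCMT, which supplies the malonyl unit, also had a weak and a strong gene. Glyma.11G164500 had a fold enrichment of 8.57 in replicate 1 and 6.14 in replicate 2 (7.36 ± 1.72, SD, n = 2). Its copy Glyma.18G057700 had 33.3 in replicate 1 and 47.9 in replicate 2 (40.6 ± 10.3, SD, n = 2). The log2 ratio of Glyma.11G164500 over Glyma.18G057700 was −1.96 in replicate 1 and −2.96 in replicate 2 (−2.46 ± 0.71, SD, n = 2). Glyma.11G164500 was thus the lower gene in 2 of 2 replicates, and the difference was larger than the spread between them.

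The peak of Glyma.11G164500 spanned chr11:15579358-15579799 in replicate 1 and chr11:15579301-15579807 in replicate 2. Its summit held 69 reads in replicate 1 and 38 reads in replicate 2, against 323 and 275 reads for Glyma.18G057700. The background was 7.17 and 5.35 reads for Glyma.11G164500 and 8.72 and 4.76 reads for Glyma.18G057700. In replicate 1 the background of Glyma.11G164500 was equal to the lowest of the whole list. Both MCMT genes are matched to AT2G30200, so here too genes with the same homolog differed.

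The MCMT and KAR pairs lie on the same pair of chromosomes. Glyma.11G164500 and Glyma.11G248000 are on chromosome 11, and Glyma.18G057700 and Glyma.18G009200 on chromosome 18. Both genes on chromosome 18 were strong, whereas on chromosome 11 the KAR gene was strong and the MCMT gene weak. Whether strength depends on the chromosome was not tested.

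**Figure D3:**
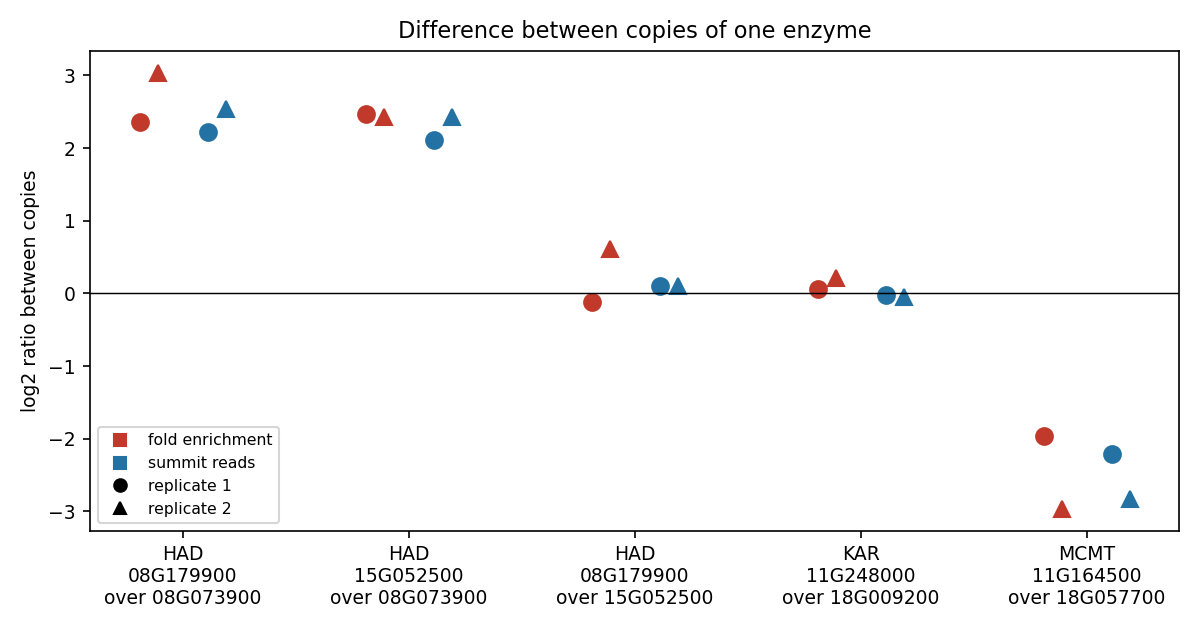
The log2 ratio between copies of one enzyme (y axis) for 5 pairs (x axis), by fold enrichment (red) and by summit reads (blue), with circles for replicate 1 and triangles for replicate 2. The pairs with a weak HAD or MCMT gene lie at 2.11 or above, or at −1.96 or below, by both measures. The KAR pair lies within 0.22 of 0, and the strong HAD pair within 0.11 of 0 by reads.

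Ordered by mean fold enrichment, the 7 genes of these enzymes ran from Glyma.08G179900 (47.3) through Glyma.11G248000 (45.1), Glyma.18G009200 (40.7), Glyma.18G057700 (40.6) and Glyma.15G052500 (39.3) to Glyma.11G164500 (7.36) and Glyma.08G073900 (7.18). Neighbours among the 5 strong genes differed by less than the larger SD of each pair, and so did the 2 weak genes. Compared within each replicate, the KAR pair alone among neighbours of the strong set kept its order in both, with a mean log2 ratio above its SD, and the 2 weak genes changed places. Each of the 5 strong genes was above both weak genes in 2 of 2 replicates.

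Within each list, the strong members were among the top 1% of peaks. Glyma.08G179900 ranked 95 in replicate 1 and 81 in replicate 2, Glyma.11G248000 ranked 87 and 121, and Glyma.18G009200 ranked 114 and 201. The weak members stood above 84.9% and 75.2% of peaks (Glyma.08G073900) and above 87.6% and 70.6% of peaks (Glyma.11G164500). Thus 3 of 5 members were in the strongest 5% of both lists, where 5.94% of shared regions were. Among the FAT genes other than the members, 59 of 105 were. These counts describe genes picked by the same values.

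The weak members stood above the median shared region, though by far less than the strong members. Relative to the median of shared regions in each replicate, Glyma.08G073900 had a log2 ratio of 0.50 ± 0.22 (SD, n = 2) and Glyma.11G164500 of 0.52 ± 0.44. Against the 8026 regions shared among peaks with a −log10 q of at least 10, these ratios were −0.015 and 0.0021. The strong members stayed well above, at 2.49 to 2.68 against those regions and 3.01 to 3.20 against all shared regions.

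Across the steps of the cycle, KAR had both of its located genes above 38 in both replicates. The geometric mean of fold enrichment over the KAR genes was 39.0 in replicate 1 and 46.7 in replicate 2. For the 3 HAD genes it was 23.2 and 23.9, and for the 2 MCMT genes 16.9 and 17.2, both drawn down by 1 weak gene. The 4 ENR genes had 24.3 and 31.5, and the 2 KASIII genes with peaks in both replicates had 30.4 and 37.4. The 3 KASI genes had 23.4 and 22.5, and the single KASII gene had 5.39 and 6.45. The KAR mean exceeded the HAD mean by a log2 ratio of 0.86 ± 0.15 and the MCMT mean by 1.32 ± 0.17 (SD, n = 2). With 1 to 4 genes for each enzyme these means describe only the genes at hand.

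A weak gene beside strong ones was also seen for KASI and KASIII, but not for ENR. For KASI, which carries out most condensations, Glyma.08G084300 (46.5) and Glyma.05G129600 (43.0) were strong and Glyma.08G024700 (6.29) was weak. For KASIII, which starts the chain, Glyma.18G211400 (35.0) and Glyma.09G277400 (32.9) were strong, and Glyma.15G003100 had a peak of 5.05 in replicate 1 and none in replicate 2. The single KASII gene with a site, Glyma.17G047000, which encodes the enzyme of the last elongation, had 5.92. The 4 ENR genes were all above 20, between 21.1 (Glyma.18G156100) and 35.7 (Glyma.11G101400), and none was weak. Of the 17 synthase genes with peaks in both replicates, 13 averaged 21.1 to 47.3 and 4 averaged 5.92 to 7.36, where 5.18% of shared regions averaged above 20. This gap was not general, since 10 of the 105 FAT genes with peaks in both replicates averaged between 8 and 20.

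The strong members were higher in replicate 2 and the weak members in replicate 1, but related genes did not all follow this. Among the strong copies, the ratio of replicate 2 to replicate 1 was 0.868 for Glyma.15G052500 and 1.44 for Glyma.18G057700. For the weak genes of other steps it was 1.20 (KASII, Glyma.17G047000) and 0.612 (KASI, Glyma.08G024700). Replicate 2 over replicate 1 was 1.43 for Glyma.08G179900, 1.26 for Glyma.11G248000 and 1.14 for Glyma.18G009200, against a median of 1.24 over the 786 shared regions above 20. It was 0.889 for Glyma.08G073900 and 0.717 for Glyma.11G164500, against a median of 1.12 over the shared regions up to 10. The reads of replicate 2 were 0.798 to 0.848 times those of replicate 1 at the strong members, 0.675 times at Glyma.08G073900 and 0.551 times at Glyma.11G164500. The counting intervals of Glyma.11G164500 overlapped between replicates (6.69 to 10.8 in replicate 1 and 4.39 to 8.37 in replicate 2). So did those of Glyma.18G009200 and of Glyma.08G073900. Those of Glyma.08G179900 (35.1 to 43.0 in replicate 1 and 49.7 to 62.0 in replicate 2) and of Glyma.11G248000 did not.

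The sites were placed on summits of these samples, and the interval by which Glyma.08G179900 was found is the extent of its own replicate 1 peak, so summit positions and widths are also given as descriptions. The summits of both replicates lay 6 bp apart at Glyma.08G073900 and Glyma.11G164500, 7 bp at Glyma.18G009200, 17 bp at Glyma.08G179900 and 24 bp at Glyma.11G248000. All 10 member summits lay within 24 bp of the centre of the located site.

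**Figure D4:**
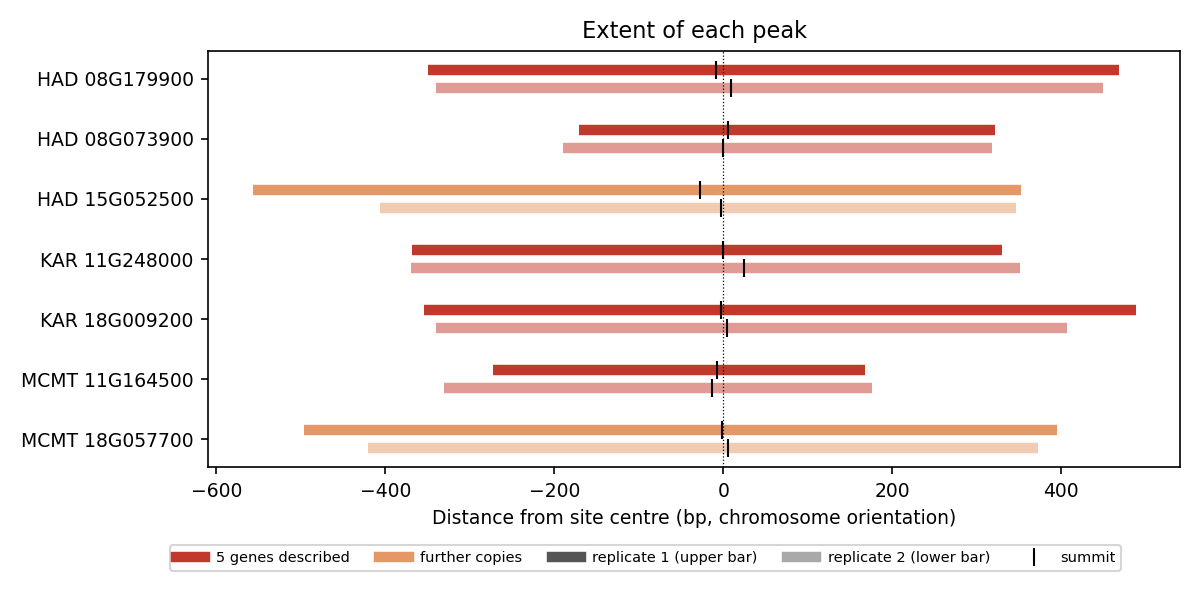
Extent of the peak of each of the 7 KAR, HAD and MCMT genes (y axis) around the centre of its site (x axis, bp in chromosome orientation), with replicate 1 as the upper and replicate 2 as the lower bar and ticks at the summits. Peaks of the 5 strong genes are 699 to 910 bp wide and those of the weak genes 442 to 509 bp.

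The strong members had narrower peaks than the median shared region of like strength (mean fold enrichment within 20%). Glyma.11G248000 was 699 and 721 bp wide, against a median of 969 and 929 bp for regions of like strength, and was below their lower quartile (796 and 766 bp) in both replicates. Glyma.08G179900 was 818 and 791 bp wide, against medians of 998 and 969 bp and lower quartiles of 835 and 783 bp. Glyma.18G009200 was 843 and 748 bp wide, against medians of 926 and 887 bp and lower quartiles of 768 and 753 bp. The trait was not particular to the members. The strong copy Glyma.18G057700 (892 and 794 bp) was below the same medians. Glyma.15G052500 (910 and 754 bp) was below its median of 882 bp in replicate 2 but not below 908.5 bp in replicate 1. KAS and ENR genes were not set against regions of like strength. The weak members lay within the middle of their like regions in replicate 2, at 509 bp (Glyma.08G073900) and 507 bp (Glyma.11G164500) against medians of 502 and 508 bp. In replicate 1 they were 494 and 442 bp wide against a median of 585 bp for each.

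Apart from Glyma.11G164500, no member had another summit within 5 kb. The nearest other summit was 16.5 kb from that of Glyma.08G179900 in both replicates, 20.3 and 20.6 kb from that of Glyma.11G248000, and 7.85 and 15.7 kb from that of Glyma.18G009200. For Glyma.08G073900 it was 8.80 and 36.3 kb away. Glyma.11G164500 had another peak 1.99 kb away in replicate 1, with a fold enrichment of 4.04, and none within 5 kb in replicate 2. Over all peaks, 50.8% in replicate 1 and 49.0% in replicate 2 had another summit within 5 kb, so a peak without one was common.

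**Figure D5:**
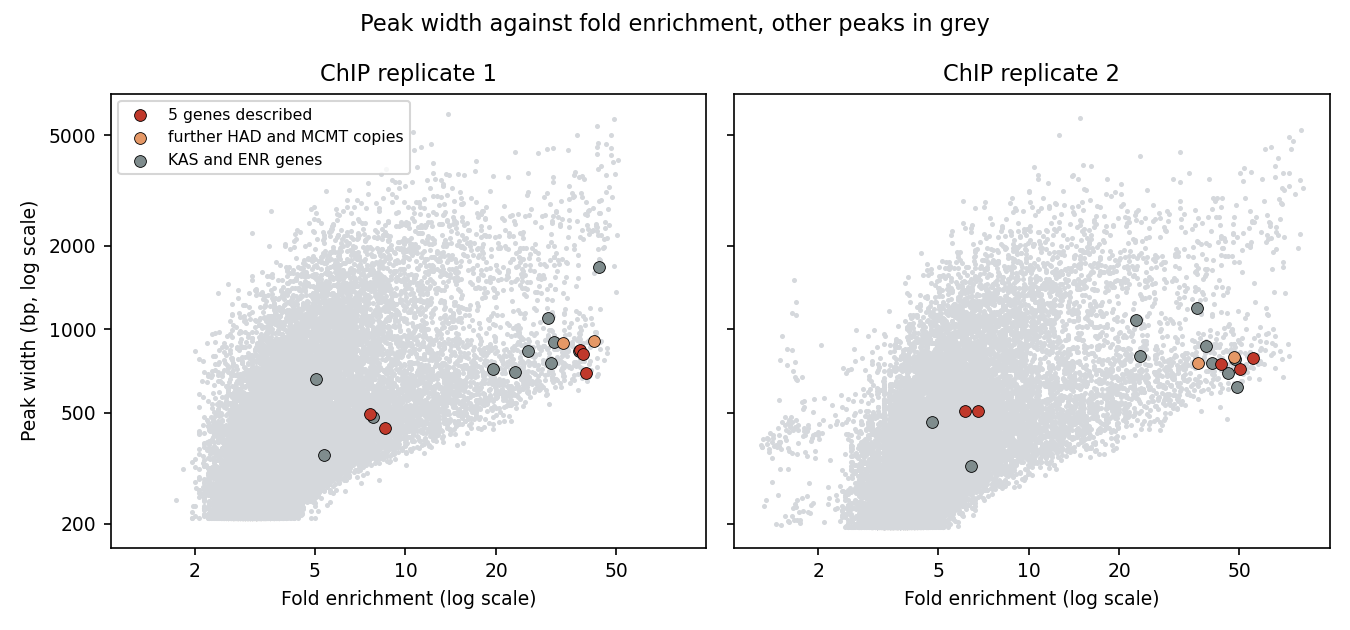
Peak width in bp (y axis, log scale) against fold enrichment (x axis, log scale) for the 5 members (red), the further copies (orange) and the KAS and ENR genes (grey with outline), with other peaks as grey dots. The strong members are 699 to 843 bp wide, on the narrow side of peaks of their strength.

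Among the other 104 FAT genes with peaks in both replicates, those nearest in log2 fold enrichment over both replicates came from several pathways. For Glyma.08G179900 they were Glyma.18G265300 (BCCP2, the biotin carrier of acetyl-CoA carboxylase) at a distance of 0.11 and the KAR gene Glyma.11G248000 at 0.15. For Glyma.11G248000 they were Glyma.17G138600 (an aldolase superfamily gene) at 0.06 and Glyma.18G265300 at 0.09. For Glyma.18G009200 they were Glyma.16G173100 (a plastid pyruvate kinase beta subunit) at 0.03 and Glyma.15G143100 (a dihydrolipoamide dehydrogenase) at 0.10. For Glyma.11G164500 they were Glyma.02G138100 (a stearoyl-ACP desaturase) at 0.07 and the HAD gene Glyma.08G073900 at 0.22. For Glyma.08G073900 they were Glyma.05G134300 (annotated as a translocator maintenance protein) at 0.11 and Glyma.17G128100 (malate synthase) at 0.18. Likeness here covers 2 samples and only the strength of the peak.

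Further soybean genes with the same or a related homolog had no site in the study's list: 4 for KAR and 2 for HAD. Absence from that list does not show absence of binding, since its genes may also have been filtered by expression. Their positions, and so any peak near them, were not analysed here.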

How the data were processed

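Peak lists of 2 ChIP samples were used. Per the submitters' processing notes, the authors aligned reads with Bowtie 0.12.7 and called peaks with MACS2 (no version stated in these sources), although the methods of the study mention MACS3. The deposited fold enrichment is a ratio of summit reads to local background, with a pseudocount of 1 on each. The authors also deposited −log10 p, −log10 q (threshold 0.01) and a display score, which was not used. Coordinates are 1-based on Wm82.a2.v1, the build of the study's gene annotation.

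Summit reads and background were solved from fold enrichment and −log10 p, within 0.001 for 100% of peaks, and tested on 20000 simulated peaks. Sites of 101 bp located by the study on these samples linked peaks to genes (overlap of at least 1 bp), and the strongest site with peaks in both lists stood for a gene. Named genes were the members, their copies, the KAS and ENR genes with a site, and the 2 FAT genes nearest to each member. Members, lists and comparisons were chosen with earlier results of these data known. Values are means ± SD over 2 replicates, with no tests. The labels call the replicates biological without naming separate plants, so their spread may be partly technical. Library totals were not used. Alternatives were a −log10 q of at least 10, summits within 100 bp of the site, other measures of strength, the mean over all peaks of a gene, 50% reciprocal overlap, the stronger 50% of each list and leaving out each replicate. Python 3.11.15, numpy 2.4.6, pandas 2.3.3 and scipy 1.17.1 were used.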

Additional observations from a re-analysis of the deposited data

How the results depend on the processing

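The members were chosen as genes with a site. Their number with peaks, 5, could therefore be lowered only by the stricter −log10 q or the limit of 100 bp, and it was 5 under both. The number in the strongest 5% was 3 with the stricter −log10 q, with each other measure of strength and in each replicate alone. The mean over all peaks and the limit of 100 bp left every value as it was, because the members and their copies have 1 site each, with summits near its centre. Without either replicate, the median member stood above the median of shared regions by a log2 ratio of 2.98 to 3.03. With a −log10 q of at least 10 that ratio was 2.49, and Glyma.08G073900 alone moved to −0.015, on the other side of that median. It was 4.92 with −log10 q as strength, 3.16 with summit reads, 2.92 with 50% reciprocal overlap and 2.53 in the stronger 50% of each list.

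Glyma.08G179900 over Glyma.08G073900 ranged from 2.36 to 3.04 without a replicate and was 3.75 by −log10 q. Glyma.15G052500 over Glyma.08G073900 was 2.43 to 2.47 without a replicate, 2.49 without the pseudocount, 3.56 by −log10 q and 2.29 by reads. Glyma.08G179900 over Glyma.15G052500 was −0.11 to 0.61 without a replicate, a turn of direction without replicate 2. The KAR difference was 0.07 to 0.22 without a replicate, 0.016 by −log10 q and −0.041 by reads, where no background divides them. The MCMT difference was −2.96 to −1.96 without a replicate and −3.79 by −log10 q.

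Between enzymes, KAR over HAD was 0.75 to 0.96 without a replicate and 1.20 by −log10 q, KAR over MCMT 1.20 to 1.45 and 2.07, and HAD over MCMT 0.46 to 0.48 and 0.87. HAD over MCMT was 0.45 without the pseudocount and 0.65 by reads. The cause of the shifts was not tested. No paired analysis was possible because the groups that share replicate numbers, ChIP and input, could not be compared without input values, which were not used here. Log2 ratios between copies and between enzymes were taken within each replicate. The SDs of single-gene means were taken over both replicates, so they also hold the general shift between replicates. The weakest members rest on 38 to 80 reads at the summit, which limits the order among them, and sequence, gene structure and total library depth were not used here.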
